A study of Stylophora pistillata with 6 samples.

Results

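In the reef coral Stylophora pistillata, 58 gene models without a gene name had more reads at the end of the night than at the end of the day, out of 25769 gene models in the table and 24180 with a read. They were chosen by their measured values in the same libraries that are described here, so their night and day values are a description and carry no test. A member had a mean of at least 5 CPM (reads of the gene model for every 1000000 reads that its library has on coral gene models) in night samples, a CPM in every night library above that of every day library, and a night to day ratio of at least 2, taken as the night mean plus 0.5 CPM over the day mean plus 0.5 CPM. It also had no gene name in the study's list of annotated changed coding sequences, either because it was not on that list or because its name cell was empty or N/A. The gene models Spis1682, Spis9755 and Spis9756 met the same values and were set aside by the rule.

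Night samples (3 libraries) and day samples (3 libraries) came from untreated branch apices of this symbiotic coral, grown at 25 °C and a salinity of 38 with 12 h of darkness and 12 h of light (175 µmol photons m-2 s-1) a day. Night samples were frozen when 1 h of darkness was left, and day samples when 1 h of light was left. All microcolonies were cut from 3 parent colonies that share 1 genotype and had 10 days to recover, so the samples stand for 1 coral clone in an aquarium, and each was a mixture of all coral cell types with the algae they host. Neither the labels nor the methods tie a replicate to a parent colony, so replicates show the spread between these samples only.

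Most animal genomes hold genes that lack a named relative in other organisms. In cnidarians, the group of corals, sea anemones and jellyfish, many such genes are restricted to the lineage, and several of those studied act in stinging cells or the skeletal matrix. The daily cycle of a symbiotic coral brings photosynthesis, oxygen and fixed carbon from the algae by day, and respiration, feeding and low oxygen by night. For the 51 members outside the study's list, the name is missing because they are not on that list. Relatives of these members in other organisms were not searched, so they are followed here by their reads alone. In whole tissue, more cells of a type at night and more RNA per cell cannot be told apart.

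Reads on coral gene models numbered 1916270 to 3062255 in the night libraries and 1552480 to 6619275 in the day libraries. Replicate 2 was the shallowest of each group, and day replicate 3 had 4.26 times the reads of day replicate 2. Where an ID is the start of longer ones (Spis135 of Spis1350 and Spis13500, for example), its deposited count also contains their reads, which were subtracted before any CPM was computed. The tissue could not be checked against marker genes, because gene models outside the study's list have no name in the sources used here. No file used here gives a sequence, length or position for these gene models, so levels are not compared between them.

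Among gene models with a read, 4.48% had every night library above every day library. Of the 15899 with a night mean of at least 5 CPM, 126 also reached the ratio of 2, a share of 0.793%. These 126 were the 58 members, the 3 that were set aside and 65 with a gene name. Of the 65, Spis10827 and Spis5338 have a locus label of another species in the name cell (v1g216927 and CGI_10020754), which was counted as a name. The best match of Spis5338 is an EF-hand domain-containing protein of Crassostrea gigas, and that of Spis10827 is a predicted protein. With night and day exchanged, 113 gene models met the same values at the end of the day, and 74 of them had no name. With 1 library left out the rule asks for 6 in place of 9 comparisons between a night and a day library, so that it is easier to meet. It then gave 91 gene models without night replicate 1, 138 without night replicate 3, and 94, 89 and 143 without day replicate 1, 2 and 3, of which 47 to 52 were members. Without night replicate 2 it gave 55, 42 of them members.

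Spis23685 had the largest night to day ratio, 7.25. Its 77.1, 75.7 and 71.0 CPM in night replicates 1, 2 and 3 stood against 6.00, 9.66 and 13.9 CPM in day replicates 1, 2 and 3, or 74.6 ± 3.20 CPM at night and 9.85 ± 3.95 CPM by day (SD, n = 3 each). The lowest night library was 5.11 times the highest day library, the widest separation of the 58. The study's list gives an uncharacterized protein of barley (Hordeum vulgare) as its best match, which attaches no function to it.

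Spis9588 followed with a ratio of 5.68, on few reads. It had 12.4, 6.78 and 14.9 CPM in the night libraries (38, 13 and 39 reads) against 1.06, 1.29 and 2.42 CPM in the day libraries (3, 2 and 16 reads). Its best match is a predicted protein of the sea anemone Nematostella vectensis. Night replicate 2 held the lowest of the night values, which was 2.81 times the highest day value.

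Spis9954 was the member on the study's list for which the search returned no hit. It had 32.3, 38.1 and 26.7 CPM in night samples against 6.00, 11.6 and 4.99 CPM in day samples, a ratio of 4.10. Replicate 2 was the highest library both at night and by day.

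Spis10826, matched to a hypothetical protein of the brown alga Ectocarpus siliculosus, had 34.6, 30.8 and 42.0 CPM at night and 14.1, 7.09 and 6.35 CPM by day, a ratio of 3.75. Day replicate 1 had about as many CPM as the other day libraries together. That none of the 3 reached the night values was fixed by the rule. The authors also mapped the reads to gene models of the alga Symbiodinium microadriaticum, which are not analysed here. Their methods describe no step that separates algal from coral reads before mapping. Whether reads of the algae are among those of Spis10826 was not tested.

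Both other members matched to Nematostella vectensis had a day library well above its group. Spis18115 had 55.2, 44.9 and 43.9 CPM at night and 12.0, 7.73 and 22.5 CPM by day, a ratio of 3.33. Spis13849 had 12.7, 16.7 and 19.8 CPM at night and 8.12, 4.51 and 2.72 CPM by day, a ratio of 3.01. For Spis18115 the high day library was replicate 3 and for Spis13849 it was replicate 1.

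The last member on the study's list was Spis12383, whose best match is an uncharacterized protein of Capsaspora owczarzaki, a single-celled relative of animals. It had 30.4, 26.6 and 27.5 CPM at night and 15.9, 9.02 and 12.4 CPM by day, a ratio of 2.22. The night libraries lay close together, at 28.2 ± 1.97 CPM, and the day libraries at 12.4 ± 3.43 CPM (SD, n = 3 each). In all, 7 members had a row in that list, 3 of them with a predicted protein of Nematostella vectensis as the match and 1 with no hit, and 51 had none.

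**Figure D1:**
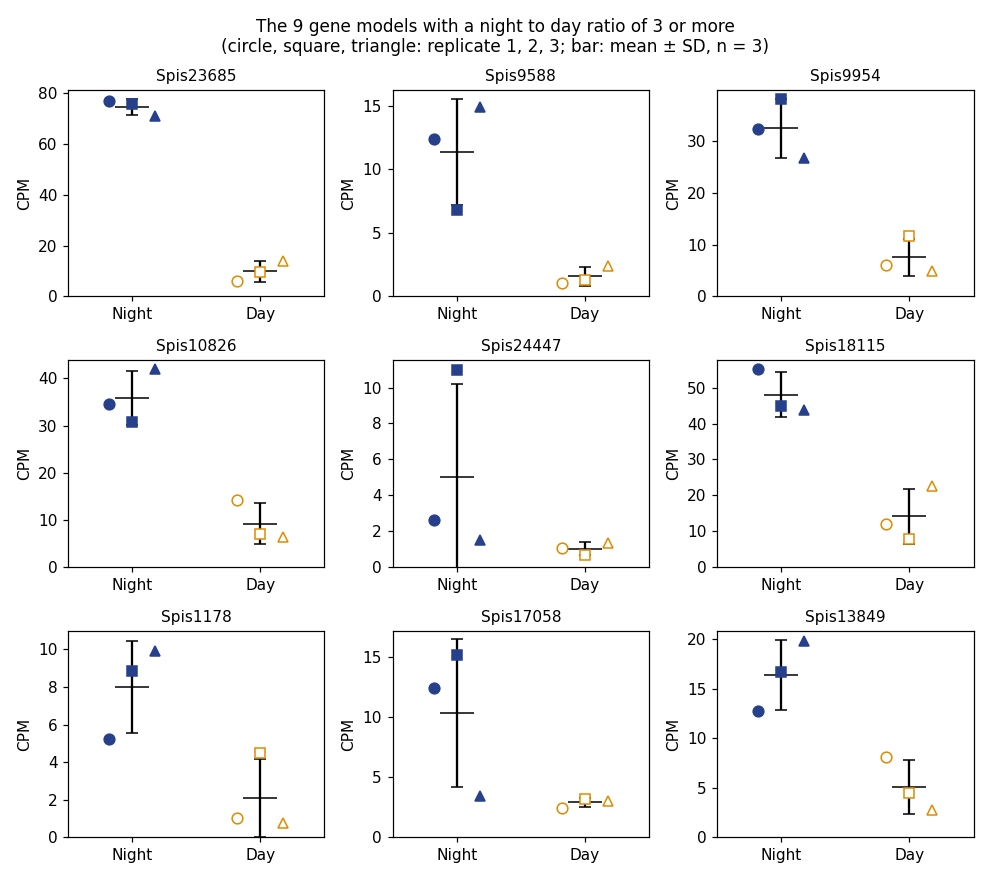
CPM in night libraries (left, filled) and day libraries (right, open) of the 9 gene models with a night to day ratio of 3 or more, with the mean and SD as bars (n = 3, cut at 0). Spis23685 stands at 71.0 to 77.1 CPM at night and 6.00 to 13.9 CPM by day, while in Spis24447 and Spis17058 the lowest night library lies next to the day libraries.

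Among the 10 largest ratios, 4 belonged to gene models outside the study's list, each with few reads. Spis24447 had 2.61, 10.96 and 1.53 CPM at night (8, 21 and 4 reads) against 1.06, 0.644 and 1.36 CPM by day (3, 1 and 9 reads), a ratio of 3.64. Night replicate 2 alone set this ratio, which was 1.69 without that library. At 103%, its coefficient of variation over the night libraries was the highest of all members.

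Spis1178 had 5.22, 8.87 and 9.92 CPM at night and 1.06, 4.51 and 0.755 CPM by day, a ratio of 3.26, and day replicate 2 (7 reads) came within 0.716 CPM of the lowest night library. Without day replicate 2 the ratio was 6.04. Spis17058 had 12.4, 15.1 and 3.43 CPM at night and 2.47, 3.22 and 3.02 CPM by day, a ratio of 3.18. In that gene model the day libraries were alike and night replicate 3 stood only 0.213 CPM above them. Spis8411 had 7.18, 5.74 and 8.01 CPM at night and 1.06, 3.86 and 1.81 CPM by day, a ratio of 2.72.

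Of the 5 members with the highest night mean CPM, a share of reads that is not corrected for length, 3 are given above (Spis23685, Spis18115 and Spis10826). Spis6173, the member nearest to the ratio limit, had 46.7, 48.0 and 29.8 CPM at night and 22.6, 16.7 and 22.1 CPM by day, a ratio of 2.00. Spis473 had 33.0, 44.9 and 38.9 CPM at night and 22.2, 23.2 and 11.6 CPM by day, a ratio of 2.02. In both, the groups were separate by over 7 CPM although the ratio was small.

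Across all 58 members the ratio ran from 2.00 to 7.25 with a median of 2.33. It lay between 2 and 3 in 49 members, between 3 and 4 in 6 and at 4 or more in 3. On the log2 scale the median ratio of the members was 1.22, and that of all gene models with a read was -0.02; the rule fixed that difference. The night mean was 5.03 to 74.6 CPM (median 10.0) and the day mean 1.02 to 20.5 CPM (median 3.82). Night means fell between 5 and 10 CPM in 29 members, between 10 and 20 CPM in 18 and at 20 CPM or more in 11.

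**Figure D2:**
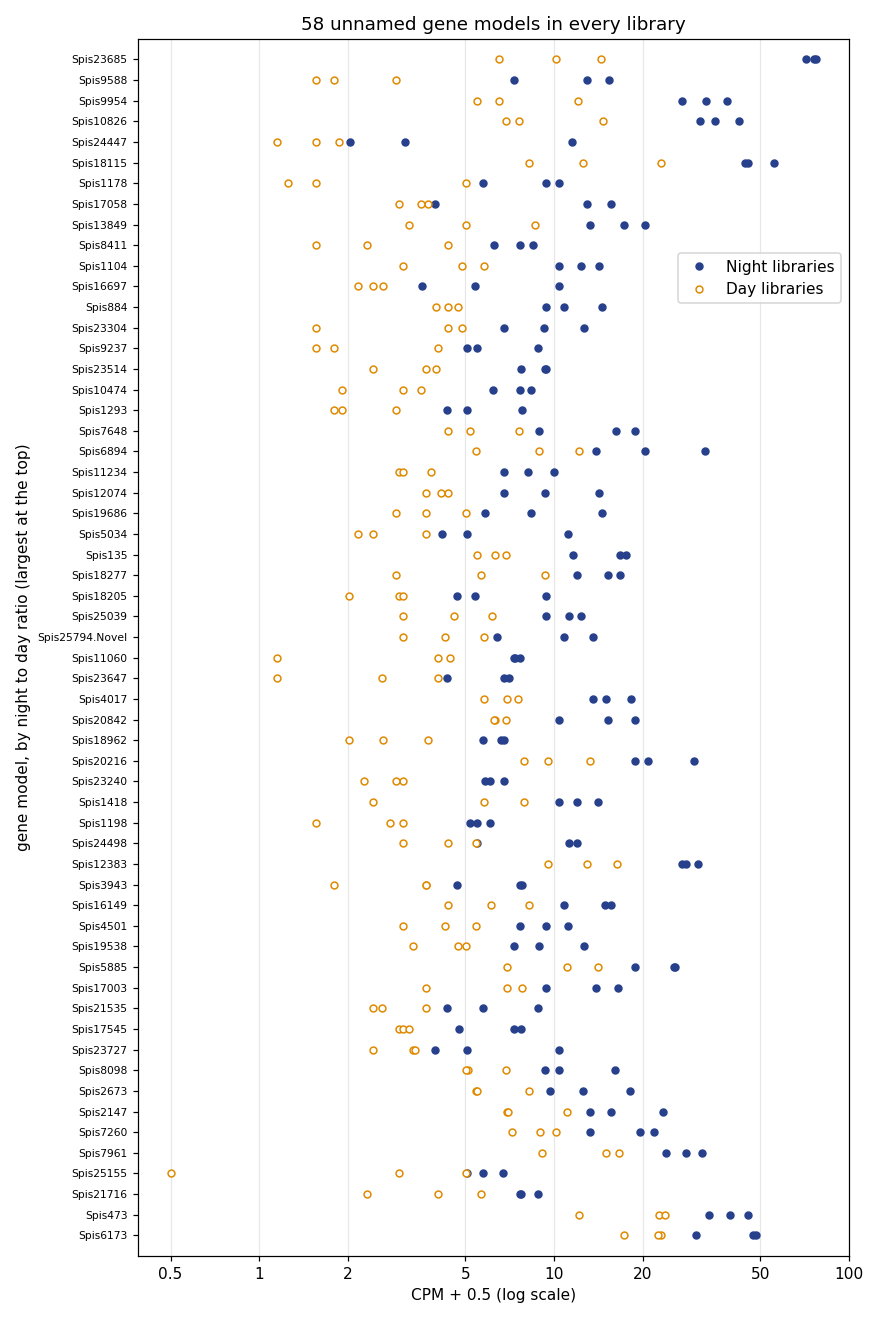
CPM plus 0.5 (log axis) of the 58 members in the 3 night libraries (filled) and the 3 day libraries (open), 1 row for each gene model, with the largest night to day ratio at the top. The groups are separate in every row by the choice of members, by 1 CPM or less in 12 rows and by 57.1 CPM in the top row.

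Close to the limits, members and other unnamed gene models differed little. Just outside the ratio limit were Spis12538, with 12.8 ± 3.51 CPM at night and 6.20 ± 1.79 CPM by day (SD, n = 3 each, ratio 1.98), and Spis9825, with 13.0 ± 0.401 CPM and 6.35 ± 0.415 CPM (SD, n = 3 each, ratio 1.97). Just inside the level limit were Spis24447, at a night mean of 5.03 CPM, and Spis1198, with 5.55, 4.70 and 4.96 CPM at night and 1.06, 2.58 and 2.27 CPM by day. Spis22242 and Spis19684 lay just outside it, with night means of 4.78 and 4.52 CPM and day means of 1.77 and 1.42 CPM. Spis9825 had the tighter libraries of these, and its ratio left it out.

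Reads were few in most members. The night libraries together gave 33 to 567 reads per member (median 75.5) and the day libraries 13 to 236 (median 42), so that counting alone carries an error of 4.2% to 17.4% on the night sum and 6.51% to 27.7% on the day sum. At least 1 day library had under 10 reads in 41 members and at least 1 night library in 6, and 17 members had 10 or more reads in every library. Spis25155 was the member with a day library at 0: it had 19, 10 and 12 reads at night against 7, 0 and 30 reads by day, where the 30 reads came from the deepest library (4.58 CPM in night replicate 3 against 4.53 CPM in day replicate 3). At 0 of 1552480 reads, day replicate 2 allows up to 1.93 CPM, for counting error only.

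The spread over replicates includes the counting error of each library, which is larger than the errors on the sums given above. The share of counting in it was not tested. The coefficient of variation had a median of 24.9% over the night libraries and 33.8% over the day libraries. At night it ran from 3.04% in Spis11060, which had 7.18, 6.78 and 6.87 CPM there, to 103% in Spis24447. By day it ran from 4.83% in Spis17545, with 2.47, 2.58 and 2.72 CPM, to 98.9% in Spis1178. The low ends rest on few reads, 22, 13 and 18 in Spis11060 at night and 7, 4 and 18 in Spis17545 by day. The smallest gap between the groups was that of Spis24498, 0.019 CPM, with 10.8, 11.5 and 4.96 CPM at night and 4.94, 3.86 and 2.57 CPM by day.

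In 7 members the lowest night library was at least 2 times the highest day library, and in 13 it was under 1.2 times. The 7 were Spis23685, Spis9588, Spis9954, Spis10826, Spis884, Spis23514 and Spis23240. Spis23240 belongs there with low values, 5.55, 6.26 and 5.34 CPM at night and 1.76, 2.58 and 2.42 CPM by day, and its libraries lay close together within each group. That closeness rests on few reads, 17, 12 and 14 at night and 5, 4 and 16 by day. Spis23514 had 8.82, 8.87 and 7.25 CPM at night and 3.18, 1.93 and 3.47 CPM by day.

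Night and day libraries with the same replicate number deviated together over 14262 gene models with at least 10 reads in every library, and within these pairs the members also varied. The ratio was 2 or more in all 3 pairs for 10 members and under 1.5 in at least 1 pair for 17. Its median was 2.20 in pair 1, 2.83 in pair 2 and 2.13 in pair 3, and 26 of the 58 had their largest ratio in pair 2. That pair holds the shallowest library of each group. The 10 members with 2 or more in all pairs were Spis23685, Spis9588, Spis9954, Spis10826, Spis1104, Spis884, Spis11234, Spis19686, Spis135 and Spis23240.

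The night library with the highest CPM was replicate 2 in 28 members (48.3%), replicate 1 in 15 and replicate 3 in 15. Over all gene models with a night mean of at least 5 CPM, night replicate 2 was the highest in 29.1%. By day the highest library was replicate 1 in 22 members (37.9%, against 26.1% of those gene models), replicate 2 in 18 and replicate 3 in 18. Added over the 58 members, the night libraries had 839, 882 and 792 CPM and the day libraries 315, 291 and 304 CPM. The part of depth in this pattern was not tested.

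In edgeR's quasi-likelihood test over all 24180 gene models, night minus day, 14 of the 58 members passed an adjusted p of 0.05 as higher at night, beside 0.409% of all gene models tested. The members had been chosen on the same contrast, so nothing is read from that difference. With the replicate number as a block, 37 members passed, beside 0.827% of all. The 14 were the 7 members of the study's list and Spis884, Spis7648, Spis135, Spis20216, Spis7961, Spis473 and Spis6173. Those 14 had a median of 318.5 reads over the 6 libraries, and the 44 others a median of 97.5 reads, with median ratios of 2.61 and 2.32. Without night replicate 2, 5 members passed, beside 62 of all 24086 gene models tested. It was 6 without night replicate 1 (beside 64 of 24030) and 6 without day replicate 2 (beside 70 of 24103). With all libraries, 99 of all gene models had passed. DESeq2 called 7 members (beside 85 of 24180), which were those on the study's list. The study had made that list with DESeq2 on these libraries, so the match is not independent. In DESeq2 the block took the count the other way, to 5 members (beside 71 of 24180).

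**Figure D3:**
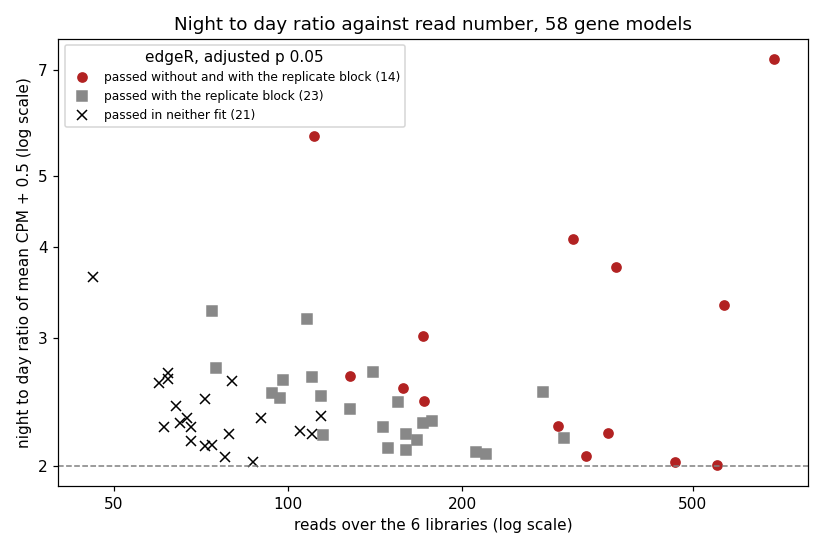
Night to day ratio against the reads over the 6 libraries (both on log axes) for the 58 members, marked by edgeR's call at an adjusted p of 0.05. The dashed line is the ratio limit of 2. The 14 that passed without the block have 111 reads or more, 23 passed with the replicate block and not without it, and 21 passed in neither. The 44 that did not pass without the block have 46 to 300 reads.

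Among the members called outside the study's list, Spis20216 had 20.2, 18.3 and 29.4 CPM at night and 7.41, 9.02 and 12.7 CPM by day, and Spis7961 had 23.5, 31.3 and 27.5 CPM at night and 14.5, 16.1 and 8.61 CPM by day. Spis7648 had 15.7, 18.3 and 8.39 CPM at night and 3.88, 7.09 and 4.68 CPM by day. These 3 are named because they passed, after their values were seen. Night replicate 3 was the highest of its group in Spis20216 and the lowest in Spis7648.

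For 9 members (15.5%) the deposited value also held the reads of longer IDs, and in each of them the ratio fell below 2 when the value was taken as deposited. Of the other 49, whose own reads are the deposited ones, 22 also fell below 2, to 1.72 at the lowest, since the deposited totals are larger and the 0.5 CPM that is added then weighs more. In the 9 members with longer IDs, the own reads were 0.394% to 26.8% of the deposited value. Spis135 is the start of 110 longer IDs: its deposited values were 8108, 4998 and 5635 at night and 6656, 3551 and 14682 by day, of which 52, 31 and 29 reads at night and 18, 9 and 33 reads by day were its own. As CPM the own reads were 17.0, 16.2 and 11.1 at night and 6.35, 5.80 and 4.99 by day, a ratio of 2.45, against 1.08 for the deposited values.

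The same held on a smaller scale where 10 longer IDs were contained. Spis1178 had 74 own reads in a deposited sum of 5579, and its ratio of 3.26 stood against 0.991 for the deposited values. Spis473 had 465 own reads of 8928, and its ratio of 2.02 stood against 0.902. In these 2 the deposited values therefore ran the other way. Spis1198 held the largest share of its own reads, 61 of 228, and had a ratio of 2.26 against 1.55 as deposited.

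**Figure D4:**
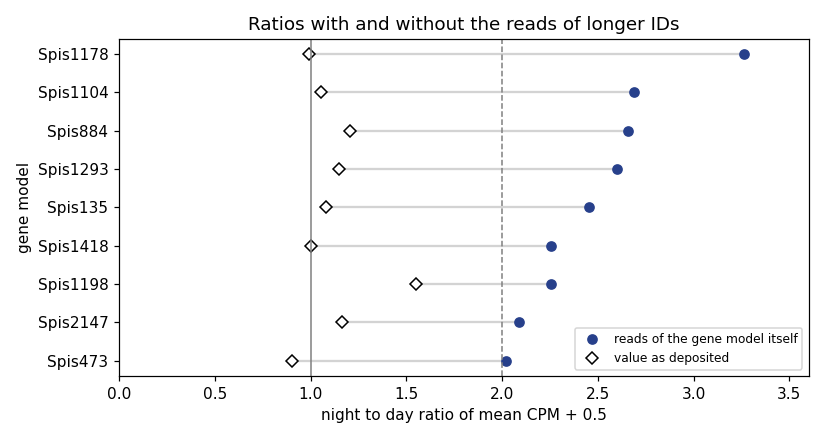
Night to day ratio of the 9 members whose ID is the start of longer IDs, from their own reads (filled circles) and from the value as deposited (open diamonds), with lines at 1 (solid) and at the limit of 2 (dashed). The ratios from own reads lie between 2.02 and 3.26 and those from deposited values between 0.902 and 1.55, on both sides of 1.

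The other 5 of these 9 had between 60 and 211 own reads. Spis1104 had 13.7, 9.92 and 11.8 CPM at night and 5.29, 2.58 and 4.38 CPM by day, a ratio of 2.69 against 1.06 as deposited. Spis884 had 14.0, 8.87 and 10.3 CPM at night and 4.23, 3.86 and 3.47 CPM by day, a ratio of 2.66 against 1.203. In both, the gap between the groups was over 4.6 CPM.

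Spis1293 had 4.57, 7.31 and 3.81 CPM at night and 1.41, 1.29 and 2.42 CPM by day, a ratio of 2.60 against 1.15 as deposited. Spis1418 had 11.4, 13.6 and 9.92 CPM at night and 7.41, 1.93 and 5.29 CPM by day, a ratio of 2.26 against 1.00. Spis2147 had 12.7, 15.1 and 22.9 CPM at night and 10.6, 6.44 and 6.50 CPM by day, a ratio of 2.09 against 1.16. Day replicate 1 came closest to the night libraries in the last of these and in Spis1418.

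The members were scattered over the numbers that name the gene models, from 135 to 25794, and no pair of them lay within 5 numbers of each other, which rests on the locus label of Spis10827 being counted as a name. Whether these numbers follow the genome was not checked, because the annotation used here does not carry them. Numbered directly before or after a member were 116 gene models, 4 of them without a read. Of the other 112, 1 passed edgeR's test as higher at night (0.893%, beside 0.409% of all tested) and 0 as lower at night (beside 0.256% of all). At an unadjusted p under 0.05 in edgeR there were 3 higher and 4 lower, beside 1294 of all 24180 in either direction. DESeq2 called 1 higher and 0 lower. The median log2 ratio of these neighbours was 0.03, and 6.25% had every night library above every day library, beside 4.48% of all.

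The neighbour that passed was Spis10827, next to Spis10826. Its name in the study's list, v1g216927, is a locus label of Nematostella vectensis rather than a gene with a known role. Spis10827 had 21.2, 19.3 and 12.6 CPM at night and 6.00, 4.51 and 6.95 CPM by day, with a log2 fold change of 1.56 (night minus day, edgeR). On the other side, Spis10825 had 24.8, 28.2 and 21.0 CPM at night and 26.5, 30.9 and 27.6 CPM by day. Spis10827 did not pass without night replicate 1, night replicate 2 or day replicate 2. It was not called either with the replicate block in DESeq2, where 0 of the 112 neighbours were higher at night, beside 71 of all 24180. At an unadjusted p under 0.05 in that DESeq2 fit, 2 neighbours were higher and 2 lower, beside 622 of all in either direction.

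Within 5 numbers of a member, 3 of 554 gene models passed as higher at night (0.542%) and 3 as lower, beside 0.409% and 0.256% of all. The 3 that were higher lay near Spis10826, Spis1418 and Spis3943, and included a LONF3 gene model (Spis3939, whose name stands for a protein with a domain found in LON proteases) with a night mean of 120 CPM and a day mean of 51.9 CPM. The LONF3 gene that the study followed by qPCR was higher by day, the opposite direction to Spis3939. The 3 that were lower at night were I2BP1 (Spis9958), known in mammals as a corepressor of transcription, near Spis9954, Spis10472 near Spis10474, and CAH2 (Spis12076), a carbonic anhydrase that interconverts carbon dioxide and bicarbonate, near Spis12074. Spis10474 had 7.18, 7.83 and 5.72 CPM at night and 1.41, 2.58 and 3.02 CPM by day, while Spis10472 had a mean of 3.30 CPM at night and 122.6 CPM by day. Spis12074 had 8.82, 6.26 and 13.7 CPM at night and 3.18, 3.86 and 3.63 CPM by day, and CAH2 had means of 203 CPM at night and 591 CPM by day.

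The 65 named gene models that met the same values had ratios of 2.04 to 111 (median 2.99), and 63 of them passed edgeR's test. The study had chosen those names among genes it called on these libraries, so the share is not independent of the choice. They had 89 to 9849 reads over the libraries (median 520), against 46 to 549 reads (median 110) in the 51 members that are not on the study's list. Over the night libraries the median coefficient of variation was 14.9% in the named gene models and 26.5% in those 51 members.

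A further 10 unnamed gene models that are not members and were not set aside passed edgeR's test as higher at night, each with a ratio below 2. Spis10845 and Spis19554 are examples chosen after their values were seen. Spis10845 had 150.2, 185 and 191 CPM at night and 104, 94.0 and 106 CPM by day, a ratio of 1.73, and Spis19554 had 102, 86.1 and 105 CPM at night and 56.8, 65.1 and 53.2 CPM by day, a ratio of 1.67. Their replicates were closer together than those of most members, and the ratio limit left them out.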

How the data were processed

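Poly(A) RNA of 6 samples was sequenced on a SOLiD instrument. Per the labels and the study's methods, the authors mapped colorspace reads, unpaired, onto 1 coding sequence (the longest) per gene model and deposited raw counts, neither normalized nor pooled. The submitters' processing notes name Bowtie 1.2.3. The genome build is not given in the sources used here.

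From the deposited counts, the reads of rows with longer IDs were subtracted, longest first (2371 IDs, 9.2%). This left 0 values below 0, and 6 of 6 library totals equalled the mapped reads the study lists. CPM is reads over the library total times 1000000. The contrast night minus day was fitted in R 4.3.3 with edgeR 4.0.16 (TMM, robust quasi-likelihood F test, two-sided, Benjamini-Hochberg adjustment over 24180 gene models). Gene models at 0 in all libraries (1589) were left out. Alternatives used DESeq2 1.42.0, limma-voom (limma 3.58.1), other scalings, filters and rule limits, the values as deposited and each library left out. On simulated counts over 23875 gene models edgeR recovered 45% of 2-fold and 98% of 4-fold changes. The changed gene models were drawn only from those above a minimum number of reads. The 44 members not called had a median of 97.5 reads over the 6 libraries, below that minimum, so the shares do not apply to most of them.

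Same-numbered libraries were treated as pairs in the pair ratios and in the alternatives with a replicate block, while the main fit was unpaired. Over 14262 gene models the deviations of same-numbered libraries correlated at 0.24, 0.19 and 0.37, those of other pairs at -0.28 to 0.09. Members and lists were chosen with earlier results of these data known. Named in full were the 10 largest ratios, the 5 highest night means, members on the study's list, next to a called named gene model, nearest the limits, or whose deposited value held longer IDs and gave a ratio under 2. The fold changes and p-values in the study's list were not used, only its names and best matches. No sequence is shown because none was given for these IDs. Python 3.11.15, pandas 2.3.3 and matplotlib 3.10.9 made the tables and plots.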

Additional observations from a re-analysis of the deposited data

How the results depend on the processing

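The number of gene models that met the rule was 60 and 61 with RLE and TMM scaling, and 51 and 70 with a pseudocount of 1 and 0.1. It was 88 and 29 with a night mean of at least 2 and 10 CPM, 276 and 9 with a ratio of at least 1.5 and 3, and 12 with the values as deposited, 8 of them members. It was 55 to 143 when 1 library was left out: 91 without night replicate 1, 138 without night replicate 3, and 94, 89 and 143 without day replicate 1, 2 and 3. With libraries thinned to the smallest it was 79, of which 39 were members. With same-number pairs in place of all libraries (replicate block) it was 66, all 58 members included, which the separation of all libraries fixes in advance.

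The number of members called by edgeR was 6 with either filter on low counts and 6 with the values as deposited, 7 in DESeq2 and 7 in limma-voom, 37 with the replicate block in edgeR and 5 with it in DESeq2, and 5 to 12 with 1 library left out. Of the filters, 1 was also used before limma-voom and kept 53 of the 58 members and 17122 gene models. The other, at least 10 reads over the libraries, kept all 58 members and 21573 gene models. Over all gene models tested in each fit, 76 passed as higher at night with either filter and 73 with the values as deposited. It was 85 in DESeq2, 73 in limma-voom and 71 with the replicate block in DESeq2. Among all gene models 200 passed as higher at night with the replicate block, against 99 without it and 62 to 105 with 1 library left out (64 without night replicate 1 and 62 without night replicate 2). Among neighbours the count was 3 within 5 numbers, 0 to 1 with 1 library left out, and 0 with the replicate block in DESeq2. Where it was 0 in edgeR, 2 to 3 were higher and as many lower at night at an unadjusted p under 0.05. Over all gene models, 886 to 1284 were under that p in either direction in those fits, of 24030 to 24103 tested. With both replicates of number 2 left out, an alternative chosen after seeing the data, 83 gene models met the rule, 40 of them members, and the ratio of Spis24447 was 1.503, that of Spis1178 5.74 and that of Spis8411 4.18. Of the members called, 10 had at least 10 reads in every library, also chosen after seeing the data. The log2 ratios of the 20 members named by the rule kept their sign except with the values as deposited. There the log2 ratio was -0.0125 for Spis1178 and -0.15 for Spis473, because those values include the reads of longer IDs. Leaving out libraries or changing the pseudocount could not turn the sign, since every night library of a member lay above every day library.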
